A study of Mus musculus with 96 samples.

Results

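The genes described here are 9 transcriptional regulators linked to the self-renewal of blood stem cells: Hlf, Mecom, Meis1, Mllt3, Prdm16, Erg, Etv6, Ikzf1 and Ikzf2. They were taken by symbol from the 19836 genes of the deposited read count table, and all 9 were found. The symbols alone define the set, which was chosen with earlier results of these data known.

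The study followed blood stem cells and their precursors in the mid-gestation mouse by RNA sequencing of 96 single cells from C57BL/6 embryos. Pre-HSCs, cells on the way to becoming haematopoietic stem cells (HSCs), came at E11.5 from the aorta-gonad-mesonephros (AGM) region, with 48 cells, and from the yolk sac, with 16 cells. HSCs came from the fetal liver, with 16 cells at E12.5 and 16 cells at E14.5. All embryos were of that 1 strain, and the labels name no treatment and no allele. Both E11.5 groups were sorted as positive for CD144, c-kit and EPCR and negative for Ter119 and CD11b. At E12.5 the gate took Sca-1, c-kit and EPCR positive cells without Ter119, and at E14.5 it took Sca-1, c-kit and CD150 positive cells without Ter119 and CD48. Yolk sac and AGM shared age and gate, and the 2 liver groups shared the tissue but not the age or the gate. Between the E11.5 and the liver groups tissue, age and gate differed together, and their parts in a difference cannot be told apart.

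HSCs keep their own number by dividing without differentiating, and a small set of nuclear factors is known to be needed for this. Several were found as factors of mouse HSC maintenance or as genes broken in leukaemia. Hlf is a PAR-type basic leucine zipper factor, Mecom and Prdm16 are related zinc finger and PR-domain factors, and Meis1 is a TALE homeodomain factor that binds DNA with Hox proteins. Mllt3 (AF9) is a YEATS-domain chromatin reader that joins DOT1L and elongation complexes, Erg and Etv6 are ETS factors, and Ikzf1 (Ikaros) and Ikzf2 (Helios) are zinc finger factors of the Ikaros family.

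The 96 wells held 250235 to 1926882 reads and 1011 to 11094 detected genes, with group medians of 4036 to 5522.5 genes. Since no label ties a cell to an animal or a litter, a group counts as 1 sample, no test of a group difference was possible, and intervals below cover counting error only. Leaving out single cells moved several levels of a group's summed reads beyond their intervals. Whether such intervals overlap is therefore no measure of a group difference. The blood cell markers Ptprc, Spn, Cd53, Laptm5 and Coro1a had a summed median of 1766 to 2327 CPM (a gene's reads per megaread of the cell or group) in the 4 groups. Summed hepatocyte markers (3 of the 4 listed, as Alb was not among the counted genes) and mesenchymal markers had a median of 0 CPM in each group. The hepatocyte sum reached 737 CPM in yolk sac, where Afp, a gene of hepatocytes and of yolk sac endoderm, was read in 43.75% of cells (48.2 CPM pooled) against 6.25% in AGM (3.98 CPM). Its part in the differences between yolk sac and AGM was not tested. In E14.5 liver, cells 3, 8, 13 and 16 stood apart with 45986 to 227928 CPM of 9 erythroid marker genes, where the next cell had 1510 CPM. Without those wells, the pooled E14.5 levels of the 9 genes were 39.3 (Hlf), 69.2 (Mecom), 76.9 (Meis1), 33.5 (Mllt3), 13.4 (Prdm16), 4.87 (Erg), 101.9 (Etv6), 38.8 (Ikzf1) and 52.0 CPM (Ikzf2), to be set beside the levels with all wells that follow. Cdh5, the gene of the sort marker CD144, was read in 93.75% of AGM cells but in 43.75% of yolk sac cells, which carried the same gate, and in 18.75% and 6.25% of E12.5 and E14.5 liver cells.

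Each of the 9 genes was read in some cells of every group, and 8 of them in 43.75% to 93.75% of the cells of any group. The exception was Prdm16, with a share of 31.25% at E14.5 (95% exact binomial interval 11.02% to 58.7%), 18.75% at E12.5 and in yolk sac (both 4.05% to 45.6%) and 16.7% in AGM (7.48% to 30.2%). The widest gap between groups in share of cells was that of Ikzf2, with 56.25% of yolk sac cells (29.9% to 80.2%) against 87.5% at E14.5 (61.7% to 98.4%) and 85.4% in AGM (72.2% to 93.9%). These intervals overlapped too, with 16 cells in 3 of the groups. After every cell was thinned to 690000 reads, the shares of Ikzf2 were 86.0% of 43 AGM cells and 50% of 16 yolk sac cells.

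**Figure D1:**
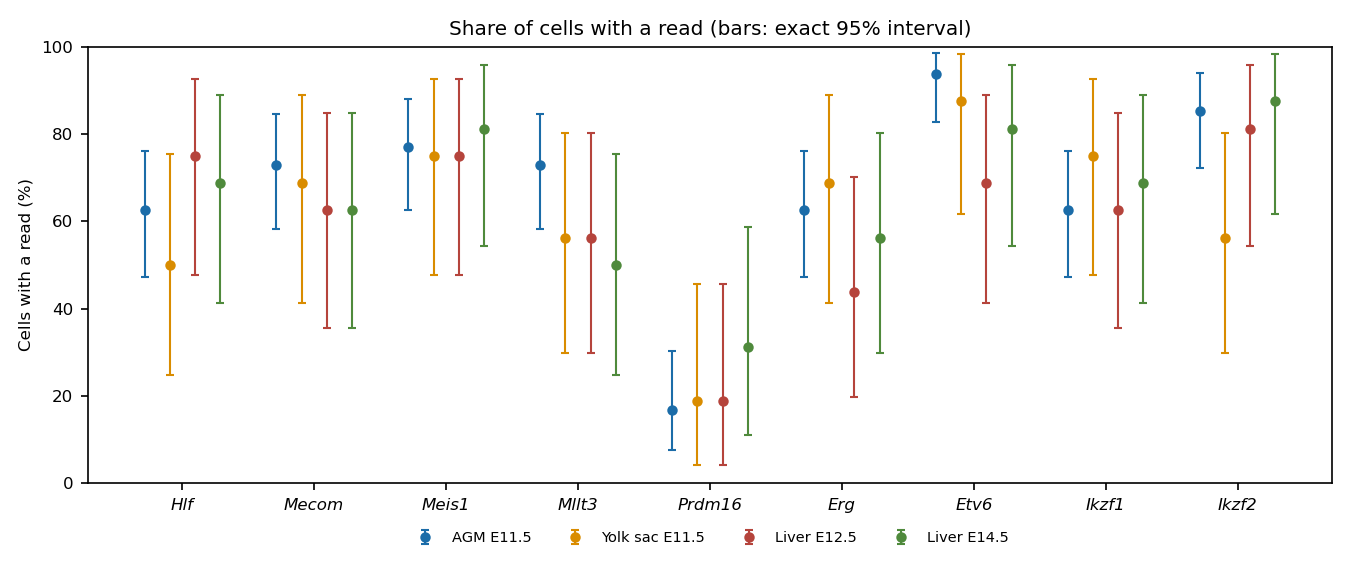
Share of cells with at least 1 read of each gene (y axis, percent) in the 4 groups, with exact 95% binomial intervals as bars. The intervals of the 4 groups overlap for each gene, and Prdm16 lies apart from the other 8 genes at 16.7% to 31.25%.

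The summed reads of all cells of a group gave the pooled CPM. Per kilobase of annotated exon, Etv6 was the highest of the 9 in every group, at 34.8 CPM in E12.5 liver, 17.8 in E14.5 liver, 15.03 in AGM and 14.3 in yolk sac. Prdm16 was the lowest in every group on that scale, at 0.203, 1.49, 0.427 and 0.0673 CPM per kilobase in the same order. The gene after Etv6 was Meis1 in AGM and E14.5 liver (6.04 and 7.23) and Ikzf1 in yolk sac and E12.5 liver (8.46 and 12.96).

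Hlf (ENSMUSG00000003949.16, GRCm38 chr11:90336536-90390895, minus strand) was highest in E12.5 liver. Its level per cell had a median of 12.47 CPM and a maximum of 333 CPM in AGM, 0.29 and 192.9 CPM in yolk sac, and, for the liver, 49.6 and 539 CPM at E12.5 and 15.9 and 197.5 CPM at E14.5, with a minimum of 0 in all 4. The cells of the groups overlapped over nearly their whole range, and 8 of 16 yolk sac cells had no read. Pooled, Hlf came to 71.5 CPM (95% Poisson interval 67.7 to 75.4) in E12.5 liver, 45.3 (42.5 to 48.3) in E14.5 liver, 37.7 (36.2 to 39.3) in AGM and 21.2 (19.4 to 23.3) in yolk sac. In yolk sac 47.7% of the Hlf reads came from cell 10, which had 1 of the 9 genes detected, and the pooled level without it was 11.7 CPM.

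Mecom (ENSMUSG00000027684.16, chr3:29951296-30548008, minus strand) was read in 62.5% to 72.9% of cells in each group. Its cells had medians of 26.8, 11.7, 8.47 and 23.01 CPM in AGM, yolk sac, E12.5 and E14.5 liver, and maxima of 224.2, 133, 482 and 295 CPM. Medians and pooled values did not share an order: the pooled level was highest in E12.5 liver at 71.9 CPM (68.1 to 75.8), where the median cell was lowest. There cell 15 gave 39.7% of the reads, and without it the pooled level was 46.02 CPM. E14.5 liver followed with 65.5 CPM (62.1 to 69.1), AGM with 47.9 (46.2 to 49.7) and yolk sac with 35.2 (32.8 to 37.7). The intervals of the 2 liver groups overlapped. In E14.5 liver cell 4 held 42.1% of the reads, and the level without it was 41.9 CPM.

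Prdm16 (ENSMUSG00000039410.16, chr4:154316125-154636873, minus strand), which carries a PR domain like Mecom, was sparse. The 8 AGM cells with a read ranged from 0.847 CPM to 83.3 CPM, the 3 yolk sac cells from 1.56 to 5.60 CPM, the 3 E12.5 cells from 1.44 to 22.99 CPM and the 5 E14.5 cells from 3.17 to 114 CPM. No yolk sac cell reached 10 CPM, while 3 AGM cells, 1 E12.5 cell and 3 E14.5 cells did. Pooled levels were 13.9 CPM (12.3 to 15.6) in E14.5 liver, 3.98 (3.49 to 4.52) in AGM, 1.89 (1.32 to 2.62) in E12.5 liver and 0.63 (0.34 to 1.05) in yolk sac. In each group 1 cell supplied at least 50% of the reads: cell 12 of E14.5 liver gave 64.7%, and the pooled level without it was 5.33 CPM, and AGM cell 42 gave 50%, with 2.04 CPM without it.

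Meis1 (ENSMUSG00000020160.18, chr11:18879817-19018985, minus strand) was read in 75% to 81.25% of cells of each group. Its cells had medians of 39.8 CPM (AGM), 58.2 (yolk sac), 16.3 (E12.5 liver) and 33.2 (E14.5 liver), and maxima of 412, 645, 323 and 251 CPM. The pooled levels lay close together, at 92.4 CPM (88.2 to 96.8) in E12.5 liver, 80.1 (76.4 to 83.9) in yolk sac, 76.2 (72.4 to 80.0) in E14.5 liver and 63.6 (61.6 to 65.7) in AGM. Their order rested on single cells. Yolk sac cell 8 gave 35.4% of that group's reads, and the level without it was 54.2 CPM, below AGM. The log2 ratio of yolk sac over AGM then went from 0.33 to -0.23. E12.5 cell 3 gave 32.7%, with 69.0 CPM without it. The yolk sac and E14.5 intervals overlapped, and in none of the 5 comparisons below did Meis1 differ by 2-fold. Of its annotated exon length, 8.51% overlapped the antisense gene Gm16140 and 9.77% the unclassified gene Gm37818. Gm37818 lies on the strand of Meis1, so a strand setting could not tell their reads apart there. The strand setting of the counting is not given in the sources used here, so reads of Gm16140 there cannot be told apart either. Over all cells, 330 reads were counted for Gm16140 and 47 for Gm37818.

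Promoter sequence was looked at for the 8 genes that RefSeq's table for GRCm38.p6 holds, in 13 windows that reach from 250 bases before to 50 bases after a start site. The core letters bound by ETS factors such as Erg and Etv6, CCGGAA on either strand, were in 2 of the 13 windows, against 14.9% of 32851 windows of the same length. The Hlf window (chr11:90390868-90391167, minus strand) and the Meis1 window (chr11:19018920-19019219, minus strand) are shown because they hold these letters, with CCGGAA or its reverse complement in capitals. The first capital lies 125 bases before the start site in Hlf and 11 bases before it in Meis1.
Hlf: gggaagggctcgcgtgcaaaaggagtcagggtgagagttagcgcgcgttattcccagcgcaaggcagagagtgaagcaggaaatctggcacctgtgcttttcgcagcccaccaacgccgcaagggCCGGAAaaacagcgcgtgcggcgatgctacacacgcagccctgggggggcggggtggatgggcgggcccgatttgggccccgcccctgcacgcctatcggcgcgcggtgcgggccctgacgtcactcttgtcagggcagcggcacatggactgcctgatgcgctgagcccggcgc
Meis1: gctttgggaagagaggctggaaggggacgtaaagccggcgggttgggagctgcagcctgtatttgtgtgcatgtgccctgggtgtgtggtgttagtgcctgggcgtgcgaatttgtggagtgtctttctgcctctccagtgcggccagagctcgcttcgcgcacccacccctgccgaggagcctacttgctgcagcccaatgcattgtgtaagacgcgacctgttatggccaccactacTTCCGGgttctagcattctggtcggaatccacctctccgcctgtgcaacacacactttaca
The other letters searched were AGATAA for Gata2 and its relatives, in 1 of 13 windows against 11.2% of all windows, TGTGGT for RUNX factors, in 1 against 16.8%, TGACAG for MEIS factors, in 3 against 19.2%, TGGGAA for the Ikaros family, in 4 against 25.6%, and TTACNTAA for PAR leucine zipper factors, in 0 against 2.32%. Both strands were searched. A match says only that the letters are there.

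Mllt3 (ENSMUSG00000028496.17, chr4:87769925-88033364, minus strand) was lower in yolk sac than in the other 3 groups. Its cells had a median of 35.97 CPM and a maximum of 262 CPM in AGM, 1.03 and 97.7 CPM in yolk sac, and, for the liver, 5.37 and 225.9 CPM at E12.5 and 8.49 and 295 CPM at E14.5. In AGM 33 of 48 cells had at least 10 CPM, against 5 of 16 yolk sac cells. The E14.5 cells fell into 8 with no read and 8 with 16.98 CPM or more, whose median was 139.5 CPM. Pooled levels were 65.6 CPM (62.1 to 69.2) in E14.5 liver, 51.2 (49.5 to 53.1) in AGM, 35.5 (32.9 to 38.3) in E12.5 liver and 16.5 (14.9 to 18.3) in yolk sac.

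All 4 E14.5 wells with high erythroid reads were among the 8 with Mllt3, at 293, 295, 43.7 and 139.1 CPM in cells 3, 8, 13 and 16. With all 16 wells, the log2 ratio of Mllt3 in E14.5 over E12.5 liver was 0.87, and without the 4 wells it was -0.08. Over AGM it was 0.35 with them and -0.60 without them. The median E14.5 cell had 8.49 CPM of Mllt3 with them and 0 without them, where the yolk sac median was 1.03 CPM. The part of the erythroid reads in the Mllt3 level was not tested.

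Erg (ENSMUSG00000040732, chr16:95359169-95586593, minus strand), an ETS factor also known from endothelium, was low in each group. Its cells had medians of 2.04 CPM (AGM), 1.74 (yolk sac), 0 (E12.5 liver) and 1.80 (E14.5 liver), and maxima of 60.02, 32.95, 163.9 and 38.3 CPM. The E12.5 group was thus split between 9 cells without a read and 7 with 3.49 CPM or more. Pooled, Erg came to 24.5 CPM (22.3 to 26.8) in E12.5 liver, 10.2 (8.90 to 11.6) in yolk sac, 8.56 (7.84 to 9.33) in AGM and 5.39 (4.44 to 6.49) in E14.5 liver. The yolk sac and AGM intervals overlapped, and cell 3 gave 65.7% of the E12.5 reads, without which the E12.5 level was 9.31 CPM. Of the cells with Erg, 29 of 30 in AGM also had Cdh5, as did 7 of 11 in yolk sac and, for the liver, 2 of 7 at E12.5 and 1 of 9 at E14.5. Of all cells, Cdh5 was read in 93.75%, 43.75%, 18.75% and 6.25% in the same order. The overlap was not particular to Erg, since Hlf had 29 of 30 and Ikzf2 39 of 41 in AGM, and Ikzf2 had 7 of 9 in yolk sac. The summed CPM of 10 endothelial marker genes had medians of 1316, 912, 1067 and 893 in AGM, yolk sac, E12.5 and E14.5 liver, with single cells from 271 to 9145, 101 to 2167, 7.99 to 2982 and 293 to 2375 CPM. Egfl7, read in every cell, had 772 of the 1635 CPM of the pooled sum in AGM and 644 of 1014 in yolk sac. In the livers of E12.5 and E14.5 it had 919 of 1289 and 754 of 1050 CPM. By contrast, Cldn5 had 178.4 CPM in AGM and 47.3 in yolk sac but 0.10 in E12.5 liver, and Flt1 had 52.8 and 27.3 against 10.7 and 8.02 CPM in the livers of E12.5 and E14.5. Kdr was at 0 in E12.5 liver, and Cldn5 and Sox17 in E14.5 liver. Cdh5, Pecam1 and Tie1 were also lower in both livers than in AGM. Other markers stayed near the AGM level. Emcn had 186.98 CPM in AGM against 181.39 and 158.02 in the livers of E12.5 and E14.5. Sox18 had 56.8 CPM in AGM against 57.47 and 49.45 in the same livers. Sox17 had 33.06 CPM in AGM and 32.23 in E12.5 liver. The part of endothelial identity in the Erg level was not tested.

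Etv6 (ENSMUSG00000030199.16, chr6:134035700-134270158, plus strand), an ETS repressor, was found in 93.75% of the cells of AGM (82.8% to 98.7%) but 68.75% of those of E12.5 liver (41.3% to 89.0%). Thinned to 690000 reads, the shares were 86.0% of 43 AGM cells and 78.6% of 14 E12.5 cells. Its cells had medians of 73.0, 62.0, 107 and 118 CPM and maxima of 396, 296, 1082 and 250 CPM in AGM, yolk sac, E12.5 and E14.5 liver. In E12.5 liver the 5 cells with no read stood beside 11 cells with 37.1 CPM or more. The pooled E12.5 level of 208.1 CPM (201.7 to 214.7) was above 106.3 (101.9 to 110.9) in E14.5 liver, 89.9 (87.6 to 92.4) in AGM and 85.7 (81.9 to 89.6) in yolk sac. The AGM and yolk sac intervals overlapped. Cell 15, which was also the highest for Mecom, held 30.8% of the E12.5 Etv6 reads, and the level without it was 153.1 CPM.

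Ikzf1 (ENSMUSG00000018654.17, chr11:11685003-11772926, plus strand), best known as a regulator of lymphoid cells, was lowest in AGM. Its cells had medians of 8.75 CPM (AGM), 41.1 (yolk sac), 32.7 (E12.5 liver) and 25.9 (E14.5 liver), and maxima of 123, 181.8, 453 and 121 CPM. In yolk sac the 12 cells with a read all had 19.1 CPM or more, while in AGM 7 of the 30 cells with a read were under 10 CPM. Pooled levels were 74.9 CPM (71.1 to 78.9) in E12.5 liver, 48.9 (46.01 to 51.9) in yolk sac, 33.5 (31.02 to 36.1) in E14.5 liver and 19.6 (18.5 to 20.7) in AGM. Cell 7 of E12.5 liver held 38.8% of that group's reads, and the level without it was 49.0 CPM, next to the yolk sac value.

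Ikzf2 (ENSMUSG00000025997.13, chr1:69531214-69687245, minus strand) had its lowest level in yolk sac, where Ikzf1 was above AGM. Its cells had medians of 35.8 CPM (AGM), 7.66 (yolk sac), 58.3 (E12.5 liver) and 31.9 (E14.5 liver), and maxima of 154.2, 144.1, 484 and 217.2 CPM. The pooled levels were 97.5 CPM (93.1 to 102.0) in E12.5 liver, 46.2 (44.5 to 47.97) in AGM, 43.4 (40.6 to 46.3) in E14.5 liver and 17.2 (15.5 to 18.98) in yolk sac. The AGM and E14.5 intervals overlapped.

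**Figure D2:**
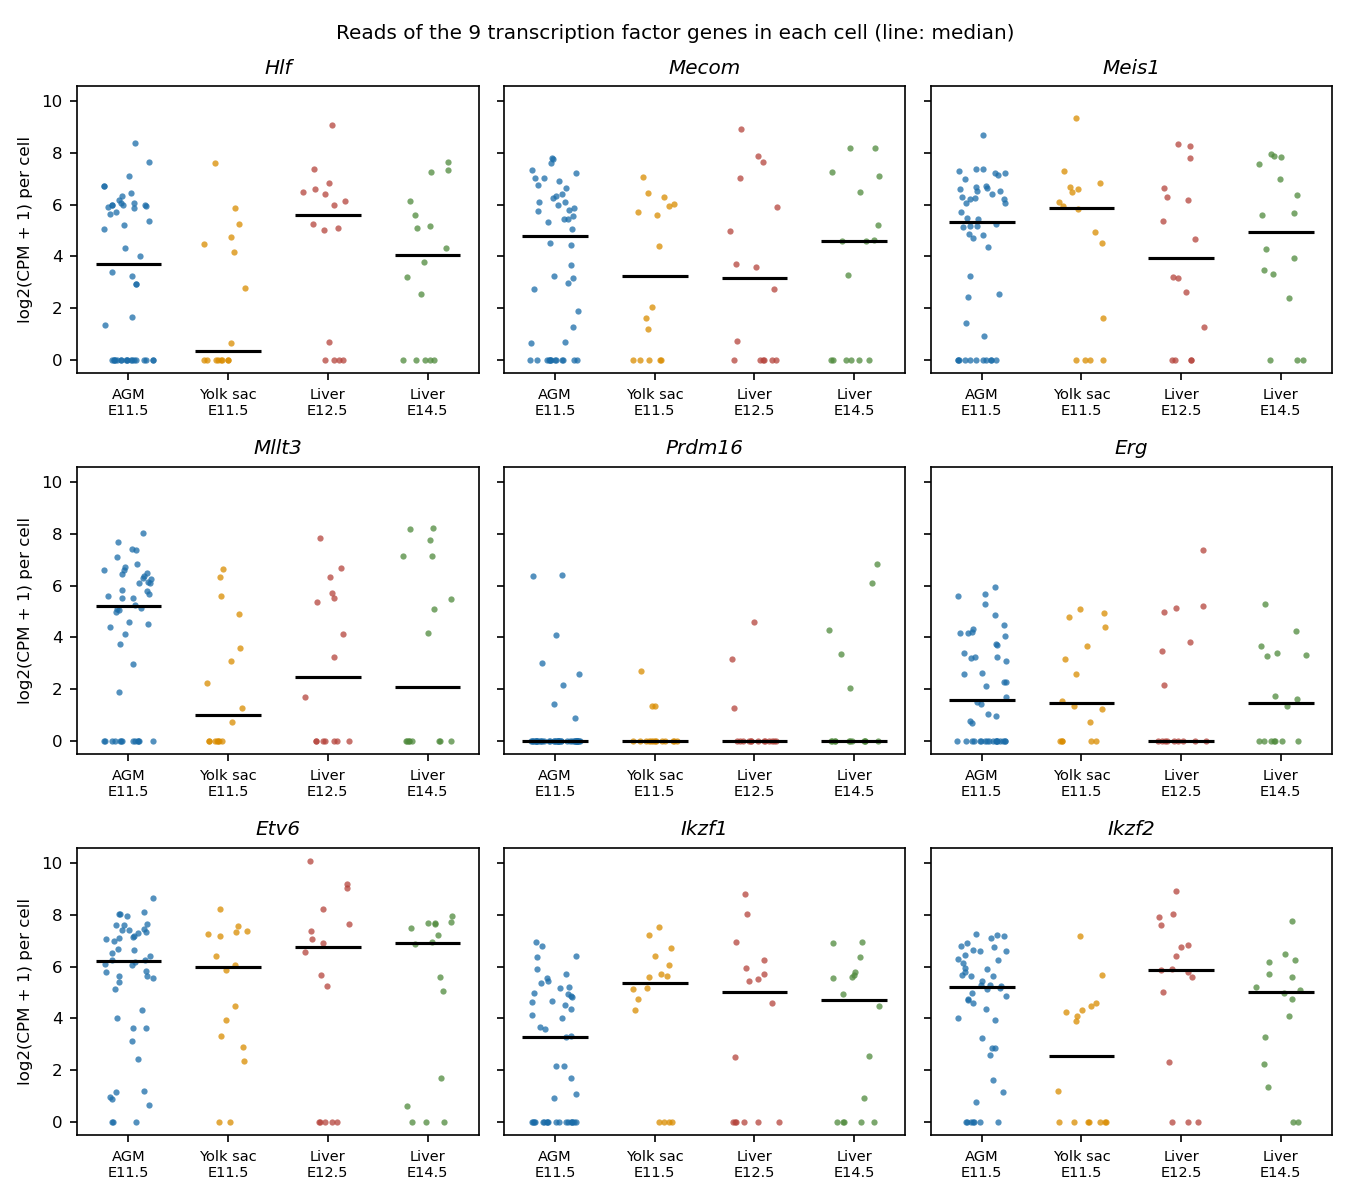
Level of each of the 9 genes in each of the 96 cells, as log2(CPM + 1) on the y axis, by group on the x axis, with the median as a line. Cells at 0 are present in every panel and group, and the groups overlap for each gene, with Prdm16 at 0 in 40 of 48 AGM cells.

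The Ikaros pair was set side by side within each group, where depth is shared. AGM cells had 2.36 Ikzf2 reads for each Ikzf1 read (95% interval 2.21 to 2.53), and yolk sac cells had 0.351 (0.312 to 0.395). When single cells were left out, the AGM ratio ranged from 2.16 to 2.56 and the yolk sac ratio from 0.239 to 0.424, so these ranges did not meet. E12.5 liver had 1.30 (1.21 to 1.40) and E14.5 liver 1.30 (1.17 to 1.43). Without cell 7 the E12.5 ratio was 2.04. By cell, 34 AGM cells had more Ikzf2 than Ikzf1 and 9 had less, whereas in yolk sac 3 had more and 11 had less. In E12.5 liver 11 had more and 3 less, and in E14.5 liver 8 had more and 8 less. Both genes were read together in 28 of the 48 cells of AGM, 7 of 16 of yolk sac and 9 of 16 of each liver group. Exon length is the same for a gene in every group, so the ratio compares groups and not the 2 genes' transcript numbers.

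**Figure D3:**
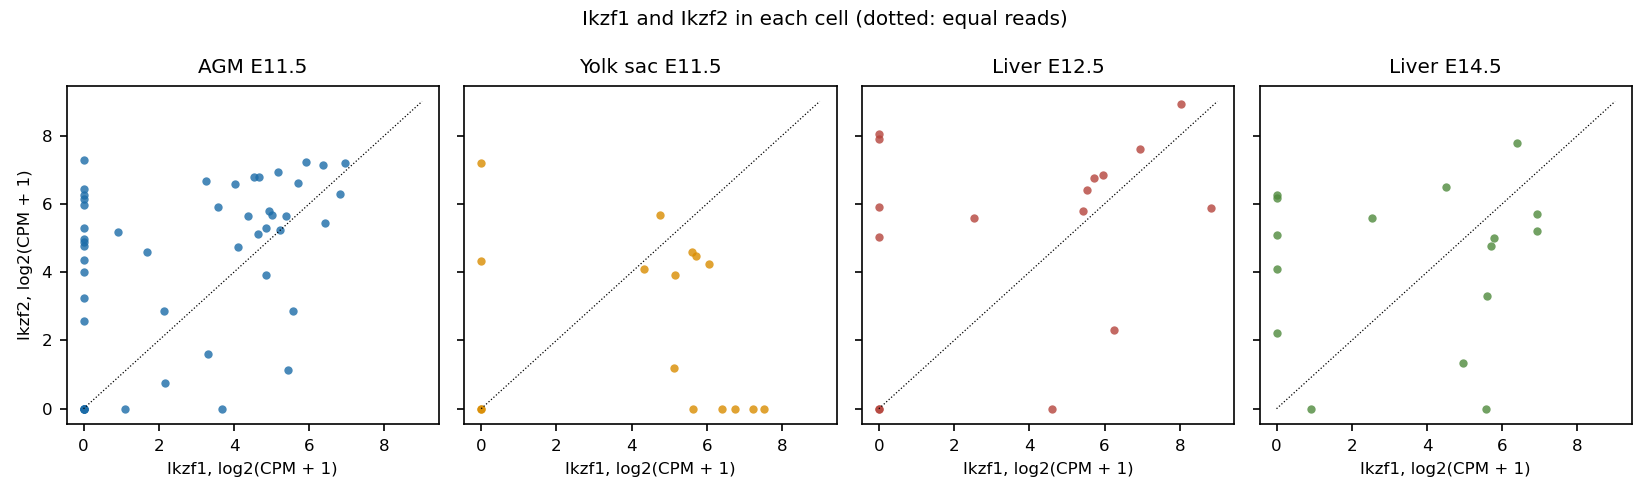
Ikzf1 (x axis) against Ikzf2 (y axis) in each cell, both as log2(CPM + 1), 1 panel per group, with the line of equal reads dotted. In AGM 34 of 48 cells lie above the line, and in yolk sac 11 of 16 lie below it.

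Group differences are log2 ratios of (pooled CPM + 1), so changes of genes at low levels come out smaller than they are, and a gene is counted when it differed at least 2-fold. The comparison of yolk sac with AGM sets 2 tissues of the same age and gate side by side. In yolk sac 3 of the 9 genes were at least 2-fold lower, where 21% of the 15239 genes with at least 30 reads were, and 1 was at least 2-fold higher, where 8.61% were. Mllt3 had a ratio of -1.57, with -2.05 to -1.40 when single cells were left out, and Ikzf2 had -1.38 (-1.84 to -1.28). Ikzf1 was higher at 1.28 (1.09 to 1.42). Prdm16, at -1.61, fell short of 2-fold without AGM cell 42, at -0.90. The median of the 9 ratios was -0.43, beside -0.20 over all genes, and 6 of the 9 lay below 0. Hlf had -0.80, and without yolk sac cell 10 it had -1.60.

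The comparison of E12.5 liver with AGM asks how HSCs of the E12.5 liver differ from the AGM precursors. In E12.5 liver 4 of the 9 genes were at least 2-fold higher, beside 15.6% of all genes, and 0 were at least 2-fold lower, beside 26%. Ikzf1 had a ratio of 1.88, and at least 1.28 with any single cell left out, the lowest value being that without E12.5 cell 7. Erg had 1.42, but 0.11 without E12.5 cell 3, and Etv6 had 1.20, but 0.76 without cell 15. Ikzf2 had 1.06 and dropped under 2-fold in 4 of the leave-outs, with 0.74 without cell 6. The medians of the cells gave another picture for Mecom, Meis1 and Erg, which were higher in E12.5 liver when pooled but lower in the median cell. As a difference of the cells' mean log2(CPM + 1), Hlf had 1.10, Ikzf1 0.97, Ikzf2 0.77, Prdm16 0.003 and Erg 0.00028. Etv6 had -0.19 on that measure, Meis1 -0.37, Mecom -0.49 and Mllt3 -1.26. Over the 9 genes the median of the pooled ratios was 0.90, beside -0.20 over all genes. Pooled, Hlf had 0.90, and passed 2-fold in 5 of the leave-outs, with 1.16 without AGM cell 39, but had 0.50 without E12.5 cell 9. Mllt3 had -0.52 and Prdm16 -0.79, and each passed 2-fold downward when an E12.5 cell was left out, at -1.15 without cell 7 and -1.53 without cell 1. Prdm16 had -0.07 without AGM cell 42, and its highest value over the alternatives given below was 0.29, so its direction was not kept.

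E12.5 liver and yolk sac were compared next, with the same E12.5 cells as above. Pooled, all 9 genes were higher in E12.5 liver, and 6 were at least 2-fold higher, beside 19.7% of all genes, while 0 were at least 2-fold lower, beside 19.5%. Ikzf2 had the largest ratio, 2.44 (2.12 to 2.90 with single cells left out), and Hlf followed with 1.70. Hlf had 2.51 without yolk sac cell 10, and at least 1.30 in each leave-out. The other 4 came under 2-fold without a single cell of E12.5 liver: Etv6 had 1.27 and 0.83 without cell 15, Erg 1.19 and -0.12 without cell 3, Mllt3 1.06 and 0.42 without cell 7, and Mecom 1.01 and 0.38 without cell 15. In the median cell, however, Mecom, Meis1, Erg and Ikzf1 were lower in E12.5 liver than in yolk sac, and Meis1, at 0.20 when pooled, had -0.14 with thinned reads and -0.27 by the mean of each cell's CPM. Mllt3 and Mecom were under 2-fold in 13 leave-outs each. Prdm16, at 0.83, reached 1.22 without yolk sac cell 3 but had 0.08 without E12.5 cell 1. The median over the 9 genes was 1.06 when pooled, beside 0 over all genes. By the difference of the cells' mean log2(CPM + 1), Ikzf2 had 2.71, Hlf 2.21, Mllt3 0.76, Prdm16 0.22, Etv6 0.17 and Mecom 0.05. On that measure Erg had -0.08, Meis1 -0.52 and Ikzf1 -0.65.

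Within the liver, E14.5 was compared with E12.5. Prdm16 was the 1 gene at least 2-fold higher at E14.5, beside 18.7% of all genes, with a ratio of 2.37. It had 1.13 without E14.5 cell 12 and 3.11 without E12.5 cell 1, so its direction did not turn when single cells were left out. At least 2-fold lower were 3 genes, beside 18.2% of all genes: Erg at -1.997, Ikzf2 at -1.15 and Ikzf1 at -1.14. Each of these fell short of 2-fold without 1 E12.5 cell, with -0.69 for Erg without cell 3, -0.83 for Ikzf2 without cell 6 and -0.54 for Ikzf1 without cell 7, while Ikzf2 had -1.60 without E14.5 cell 10. Ikzf1 also came under 2-fold in 1 other leave-out. Erg was nonetheless read in more cells at E14.5 (56.25% against 43.75%), with a higher median cell, and the medians of Mecom, Meis1 and Etv6 were also higher at E14.5 though their pooled ratios lay below 0. Without the 4 E14.5 wells of high erythroid reads, Prdm16 had 2.32, Erg -2.12, Ikzf1 -0.93 and Ikzf2 -0.89, and Etv6 passed 2-fold at -1.02. Hlf, Mecom, Meis1 and Mllt3 then had -0.85, -0.05, -0.26 and -0.08. Etv6 missed 2-fold at -0.96, but passed it in 16 leave-outs, down to -1.11 without E14.5 cell 1. Without E12.5 cell 15 it had -0.52. Hlf had -0.65, with -1.04 without E14.5 cell 4 and -0.24 without E12.5 cell 9. Mllt3 was higher at 0.87, and at 1.503 without E12.5 cell 7. The median of the 9 genes was -0.65 when pooled, beside 0 over all genes. By the difference of the cells' mean log2(CPM + 1), Prdm16 had 0.85, Meis1 0.59, Mllt3 0.42 and Mecom 0.40. On that measure Etv6 had -0.17, Ikzf1 -0.25, Erg -0.26, Hlf -0.80 and Ikzf2 -0.87.

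Between E14.5 liver and AGM, 1 of the 9 genes differed by 2-fold. Prdm16 was higher at 1.58, beside 15.3% of all genes, and 0 of the 9 were at least 2-fold lower, beside 25.3%. Prdm16 had 0.35 without E14.5 cell 12 and 2.29 without AGM cell 42. The other 8 ratios lay between -0.58 (Erg) and 0.75 (Ikzf1), with 6 of the 8 above 0, and the median of all 9 was 0.26, beside -0.23 over all genes. Without the 4 wells of high erythroid reads Prdm16 had 1.53 and the other 8 lay between -0.70 (Erg) and 0.95 (Ikzf1). With all wells, the difference of the cells' mean log2(CPM + 1) was 0.85 for Prdm16, 0.72 for Ikzf1, 0.29 for Hlf and 0.22 for Meis1. It was -0.08 for Mecom, -0.10 for Ikzf2, -0.26 for Erg, -0.37 for Etv6 and -0.85 for Mllt3. This comparison and the 2 others with AGM share the AGM cells, and the 3 with E12.5 liver share those cells, so their ratios are not independent.

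**Figure D4:**
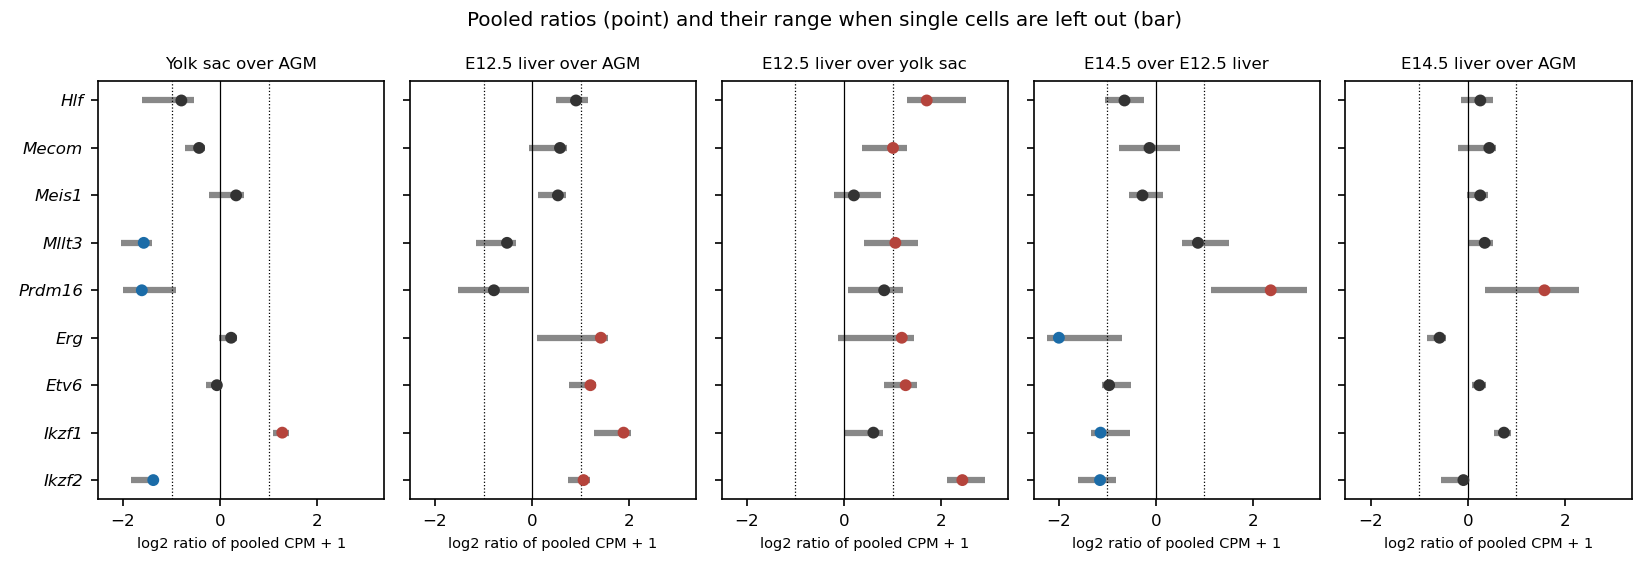
Log2 ratio of pooled CPM + 1 (x axis) for each gene in the 5 comparisons, with the range over leave-one-cell-out values as a bar and 2-fold as dotted lines. Points past 2-fold are coloured. The bar of Ikzf2 in E12.5 liver over yolk sac stays above 2-fold, and that of Erg in the same panel crosses 0.

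How many of the 9 genes were read in the same cell was then counted. The median was 5.5 genes in E14.5 liver (range 3 to 9) and 6 in E12.5 liver (0 to 9), yolk sac (1 to 9) and AGM (2 to 9). Means over cells were 5.88 ± 1.63 (SD, 16 cells) in E14.5 liver, 5.44 ± 2.25 (SD, 16 cells) in E12.5 liver, 5.56 ± 2.39 (SD, 16 cells) in yolk sac and 6.06 ± 1.69 (SD, 48 cells) in AGM, so the groups differed by less than the spread between cells. Cells with at least 7 of the 9 genes made up 43.75% of AGM (29.5% to 58.8%), 43.75% of E14.5 liver (19.8% to 70.1%), and 31.25% of yolk sac and of E12.5 liver (both 11.02% to 58.7%). At a limit of 5 reads the shares with at least 7 genes were 33.3% in AGM, 18.75% at E14.5, 31.25% in yolk sac and 25% at E12.5, and at a limit of 10 CPM they were 14.6% in AGM, 18.75% in yolk sac and at E12.5, and 2 of 16 cells at E14.5, so their order depended on the limit. The E14.5 share with a read was 50% of the 12 cells left without the wells of high erythroid reads. Thinned to 690000 reads per cell, the median was 6 genes in AGM and in E12.5 liver, 5.5 in E14.5 liver and 5 in yolk sac.

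The full set of 9 was read in 7 cells, of which AGM had 2, yolk sac 3, and each liver group 1. Yolk sac cells 1, 2 and 3, which had all 9, were also the 3 yolk sac cells with Prdm16. They had 9848 to 10823 genes detected, where the yolk sac median was 5349.5. The number of the 9 genes read went with the number of all genes detected in a cell, with a Pearson correlation of 0.66 for AGM (48 cells) and 0.83, 0.69 and 0.56 for yolk sac, E12.5 and E14.5 liver (16 cells each). Both are counts of detected genes from the same library. With total reads the same correlations were 0.24, 0.61, 0.53 and 0.04. E12.5 cell 8, with 0 of the 9 genes, had 250235 reads and 1011 genes, the fewest of the series.

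**Figure D5:**
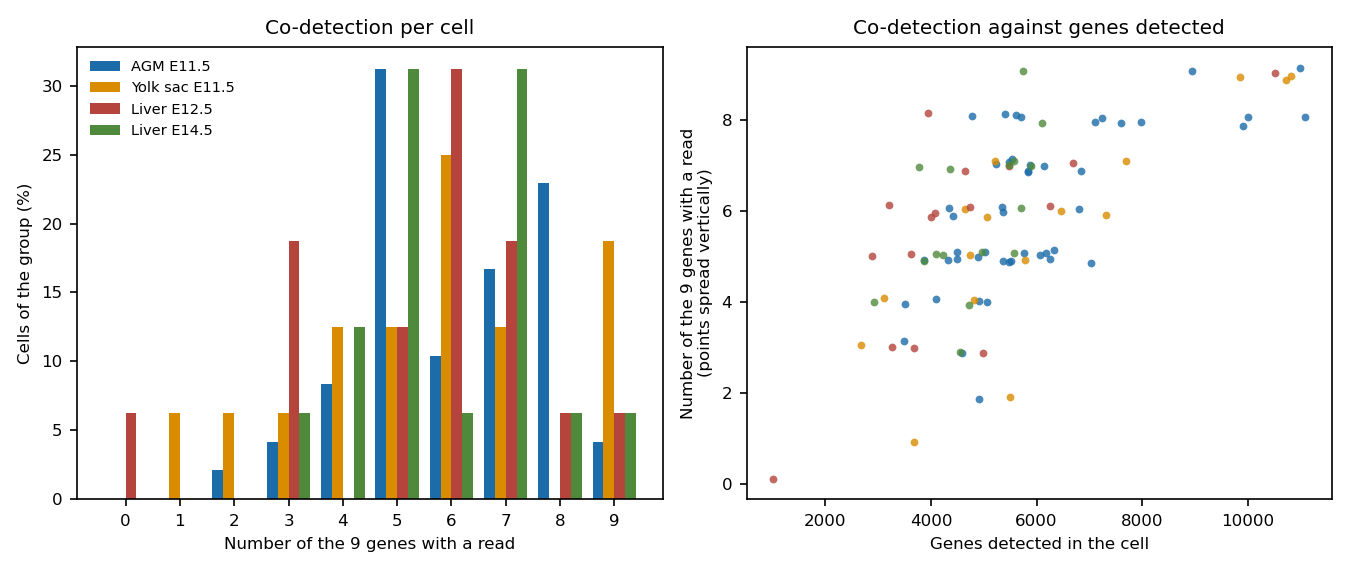
Left, share of the cells of each group (y axis, percent) by the number of the 9 genes with a read (x axis). Right, that number (y axis, points spread vertically) against all genes detected in the cell (x axis), 1 point per cell, where the cell with 1011 genes has 0 of the 9 genes and the cells with 8 or 9 of them have 3946 to 11094 genes.

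Hlf, Mecom and Mllt3 were read together in 18 of the 48 cells of AGM, and in 4, 6 and 5 of the 16 in yolk sac, E12.5 and E14.5 liver. With Meis1 added these numbers were 16, 4, 5 and 3. Every AGM and yolk sac cell with Prdm16 also had Mecom (8 of 8 and 3 of 3), as did 2 of 3 in E12.5 liver and 3 of 5 in E14.5 liver. Over all groups 16 of the 19 cells with Prdm16 had Mecom while 19 of 19 had Etv6, and the 3 yolk sac cells had all 9 genes. In AGM the Pearson correlations of log2(CPM + 1) over the 36 pairs of the 9 genes ran from -0.23 (Mllt3 with Etv6) to 0.41 (Mecom with Mllt3), with a median of 0.05 and 24 of 36 above 0. Mllt3 with Etv6 had 0.63 in yolk sac and, for the liver, 0.46 at E12.5 and -0.13 at E14.5, so its sign was not shared by the groups. Of the other genes of the series, 8222 had a read in at least 25% of cells, and those most like each of the 9 over the 96 cells, centred within group, had Pearson correlations of 0.39 to 0.50. They were Zfp277 and Kif5b for Hlf, Fryl and Klc1 for Mecom, Otub1 and Anxa5 for Meis1, Klf6 and Prpf4b for Mllt3, Rnf14 and E2f5 for Erg, Sept11 and Ppie for Etv6, Fkbp2 and Supt3 for Ikzf1, and Pigm and Cuedc2 for Ikzf2. For Prdm16 they were Cdkal1 at 0.49 and She at 0.45, but Spearman's rho was 0.14 and 0.09. For the other members rho ran from 0.26 (Cuedc2 with Ikzf2) to 0.50 (Fryl with Mecom), with 0.31 for Ppie and 0.33 for Anxa5. All were picked as the highest among 8222 genes, and their relation to the members was not tested. The number of genes detected per cell, which all these genes share, correlated with the 9 at 0.17 to 0.36.

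Other regulators of the same network were counted as well. Of 17 core blood stem cell factors, 16 had enough reads, and their numbers at least 2-fold higher and lower are given with the share of all 15239 genes in brackets. They were 1 (8.61%) and 2 (21%) in yolk sac over AGM, 5 (15.6%) and 0 (26%) in E12.5 liver over AGM, and 4 (19.7%) and 0 (19.5%) in E12.5 liver over yolk sac. For E14.5 liver they were 0 (18.7%) and 1 (18.2%) over E12.5 liver and 3 (15.3%) and 1 (25.3%) over AGM. Without the 4 wells of high erythroid reads the E14.5 numbers were 1 and 2 over E12.5 liver and 5 and 0 over AGM. In yolk sac Gfi1, a repressor known in HSCs, had 6.10 CPM against 36.8 CPM in AGM (ratio -2.41), and Lyl1, a relative of Tal1, had 2.33 against 12.2 CPM (-1.99). Gfi1 had 81.3 CPM in E12.5 liver. Cbfa2t3, a corepressor, had 94.3 CPM in E12.5 liver against 33.5 in AGM (1.47) and 14.04 in E14.5 liver (E14.5 over E12.5 -2.66, and -3.28 without E14.5 cell 2).

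The 21 partners and cofactors include Hox proteins that act with Meis1 and the complexes that Mllt3 joins. All 21 had enough reads, and the numbers higher and lower, with the same shares of all genes, were 1 (8.61%) and 3 (21%) for yolk sac over AGM, and for E12.5 liver 2 (15.6%) and 8 (26%) over AGM and 1 (19.7%) and 4 (19.5%) over yolk sac. E14.5 liver had 2 (18.7%) and 1 (18.2%) over E12.5 liver, or 4 and 1 without the 4 wells, and 3 (15.3%) and 5 (25.3%) over AGM, or 5 and 7 without them. Dot1l, the histone methyltransferase that Mllt3 binds, was read in 77.1% of AGM cells and 6.25% of E14.5 cells, with 35.9 and 2.23 CPM (-3.51, and -5.21 without E14.5 cell 13, which is 1 of the 4 wells). Aff4, an elongation complex scaffold, was read in 77.1% of AGM cells and 25% of E12.5 cells (-2.44, and -3.51 without E12.5 cell 5). Hoxa9 had 188.3 CPM in E14.5 liver against 64.4 in AGM (1.53), and Men1 72.6 CPM in E12.5 liver against 23.1 in AGM (1.61).

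Of 18 relatives of the 9 genes, 17 had enough reads, and 0 were higher in yolk sac over AGM (8.61% of all genes) while 6 were lower (21%). In E12.5 liver 0 (15.6%) were higher and 9 (26%) lower than in AGM, and 0 (19.7%) higher and 3 (19.5%) lower than in yolk sac. In E14.5 liver 4 (18.7%) were higher and 2 (18.2%) lower than at E12.5, also without the 4 wells, and 2 (15.3%) were higher and 8 (25.3%) lower than in AGM, or 2 and 9 without the wells. Against AGM the median ratio of the relatives was -0.88 in E14.5 liver, -1.15 in E12.5 liver and -0.60 in yolk sac, where those of the 9 genes were 0.26, 0.90 and -0.43 and those of all genes -0.23, -0.20 and -0.20. Ets1, an ETS relative of Erg and Etv6, had 21.2 CPM in AGM and 0.63 CPM in yolk sac (-3.77). Gabpa, another ETS gene, had 21.1 CPM in AGM and 0.29 in E14.5 liver (-4.10).

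Among 16 stem cell surface and signalling genes, 2 were higher in yolk sac than in AGM (8.61% of all genes) and 5 lower (21%). Against AGM, E12.5 liver also had 2 higher (15.6%) and 5 lower (26%), and against yolk sac 3 higher (19.7%) and 0 lower (19.5%). E14.5 liver had 5 higher (18.7%) and 2 lower (18.2%) than E12.5 liver, or 4 and 1 without the 4 wells, and 6 higher (15.3%) and 1 lower (25.3%) than AGM, or 6 and 4 without them. Procr, which encodes the sort marker EPCR, had 296 CPM in AGM and 49.4 CPM in yolk sac (-2.56), though both were gated on EPCR. Ly6a, which encodes Sca-1, a marker of both liver gates only, had 225.8 CPM in E12.5 liver against 31.3 in AGM (2.81). E14.5 liver had 95.3 CPM of it (1.57 over AGM). Slamf1, which encodes CD150, a marker of the E14.5 gate only, had 64.1 CPM in E14.5 liver. It had 0 CPM in AGM (6.03) and 7.19 CPM in E12.5 liver (2.99). The list thus holds genes of gate markers (Procr, Kit, Ly6a and Slamf1), and its counts are not free of the sorting.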

How the data were processed

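RNA of 96 single cells was sequenced, each sorted alone into a well. Per the labels' protocols, cDNA came from a SMART-Seq kit and libraries from a transposome and 12 PCR cycles. No molecular identifiers are named, so reads are not molecules. Per the submitters' processing notes, FastQC, Trimmomatic 0.36, STAR, HTSeq and the mm10 build were used. The annotation release and strand setting are not given in the sources used here. The authors deposited 1 table of raw counts of reads, with 19949 gene rows. The 113 rows that shared a symbol with an earlier row were summed into it, which left 19836 genes.

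Reads were pooled per group and scaled to CPM. Ratios used pooled CPM + 1 over the 15239 genes with at least 30 reads, which all 9 members passed, and a gene was counted past 2-fold. Intervals are exact at 95% (Poisson, Clopper-Pearson) and cover counting error only. A cell with a read had at least 1 count. No cell was filtered and no doublet caller was run. Thinning drew 690000 reads per cell, the 10th percentile of totals rounded down, and left out 5 AGM, 0 yolk sac, 2 E12.5 and 2 E14.5 cells. Coordinates and exon lengths came from GENCODE annotation of GRCm38, the assembly of mm10, where the identifier of Erg has a later version than in the table. Promoters came from RefSeq for GRCm38.p6. Tools were Python 3.11.15, numpy 2.4.6, pandas 2.3.3, scipy 1.17.1 and matplotlib 3.10.9. The calculation of the ratios was tested on simulated Poisson counts with known fold changes. Those counts had no spread between cells beyond counting error, unlike these data, so the test covers the arithmetic only.

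The members, the pathway lists (core blood stem cell factors, partners and cofactors, family relatives, stem cell surface and signalling genes) and the marker lists (endothelial, erythroid, macrophage and myeloid, mesenchymal, megakaryocyte, hepatocyte, lymphoid, pan-haematopoietic) were chosen with earlier results of these data known. Named genes were all 9 members, the 2 genes of each list that were farthest up and farthest down per comparison with a read in at least 25% of cells of the higher group, of which examples are given, and the 2 genes most correlated with each member. Some genes that the rule names are left out of the text. Macrophage and myeloid markers had summed medians of 695 to 1230 CPM over the groups, megakaryocyte markers 11.2 to 148 CPM, and lymphoid markers 0. Of the 4 lymphoid markers, 2 were among the counted genes, without Cd3e and Rag1. Lyz2 and Mpo gave most of the pooled myeloid sum, while Csf1r, Mrc1 and C1qa had at most 31.9 CPM in any group. Alternatives were 10 CPM added, the mean of each cell's CPM, median-of-ratios scaling, thinned reads, cells with at least 2000 genes, AGM cells 1 to 16, other detection limits, no minimum on reads, other correlation measures and leaving out each cell. Leaving out the 4 E14.5 wells with at least 10000 erythroid CPM was chosen after seeing the data.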

Additional observations from a re-analysis of the deposited data

How the results depend on the processing

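Of the 19 ratios of the 9 genes past 2-fold, 6 stayed past it in every alternative run: Mllt3 and Ikzf2 in yolk sac over AGM, Ikzf1 in E12.5 liver over AGM, Ikzf2 and Hlf in E12.5 liver over yolk sac, and Prdm16 in E14.5 over E12.5 liver. Over all 45 ratios, 30 kept their sign in every alternative. With 10 CPM added, the genes at least 2-fold higher numbered 0 in yolk sac over AGM (Ikzf1 had 0.99), 2 in E12.5 liver over AGM, 3 in E12.5 liver over yolk sac and 0 in E14.5 liver over AGM. With AGM cells 1 to 16 there were 2 higher in E12.5 liver over AGM and 1 lower in E14.5 liver over AGM, and that setting moved the median of all genes from -0.20 to -0.10 in the first. Thinned reads also gave 1 lower in E14.5 liver over AGM, and the mean of each cell's CPM gave 2 higher in E14.5 over E12.5 liver. When single cells were left out, the higher and lower counts ranged from 1 to 1 and 2 to 4 in yolk sac over AGM, 3 to 5 and 0 to 1 in E12.5 liver over AGM, 3 to 6 and 0 to 0 in E12.5 liver over yolk sac, 1 to 2 and 1 to 4 in E14.5 over E12.5 liver, and 0 to 1 and 0 to 0 in E14.5 liver over AGM. Erg in E12.5 liver over yolk sac ranged from -0.12, without E12.5 cell 3, to 1.44 when single cells were left out. The median number of the 9 genes read in E14.5 cells was 4.5 at a limit of 10 CPM, and 5 to 6 when single cells were left out. Without a minimum on reads, the share of genes past 2-fold ranged from 6.76% to 19.999% over the 10 counts, against 8.61% to 26% with it. Except where a value above or the alternative's own construction (fewer cells, a larger added CPM) shows it, the cause was not tested. No paired analysis was possible because the cell numbers in the labels only name cells and no test was made. The limits are 16 cells in 3 of the groups, 1 sample per group, and reads that 1 cell could supply for the most part, as for Prdm16 in each group and Erg in E12.5 liver. A cell without a read may still express the gene, since no molecule count is known.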
